A study of Mus musculus with 18 samples.

Results

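The quantity described here is a difference of differences: how far gene expression changed with a Cre mark in tumor cells, minus how far it changed with the same mark in normal muscle. It used 14 of the series' 18 arrays, chosen by their labels: marked (Tom+) and unmarked (Tom-) cells of muscle, 3 arrays each, and marked (Tom+/Pecam1-) and unmarked (Tom-/Pecam1-) cells of tumor, 4 arrays each. Every array held RNA from cells sorted by flow cytometry after enzymatic digestion of the tissue. All mice carried aP2-Cre, a recombinase under the promoter of Fabp4, a fatty acid carrier of fat cells and capillary endothelium, together with tdTomato, a red reporter that stays on once Cre has acted. Muscle came from the normal sternocleidomastoid of mice at postnatal day 21 (strain B6;SJL, genotype aP2-Cre/+;tdTomato/+, with marked repeat 1 labelled aP2-Cre/+;tdTomato). Tumors came from mice that also carried SmoM2, an activated Smoothened (genotype aP2-Cre/+;tdTomato/+/;SmoM2/+ on the strain BJ;SJL;B6.129), at day 48 for repeats 1 to 3 and day 38 for repeat 4. The other 4 arrays held Tom+/Pecam1+ tumor cells, whose levels are given beside some results. The labels do not say how many animals or tumors a sample pooled, so p-values measure the spread between these samples.

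Marked muscle cells were not divided by Pecam1, an adhesion molecule of endothelial cells, platelets and some leukocytes, whereas the tumor cells compared were its Pecam1-negative part. Tissue, age, strain, the SmoM2 allele and this gate therefore all change between the 2 contrasts, and their shares in the difference cannot be told apart. In bulk samples such as these, fewer cells of a type and less RNA per cell cannot be told apart either.

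A mark left by Cre records past promoter activity and not present cell identity. In muscle, Fabp4 is known from capillary endothelium and from fat cells. Hedgehog signalling works through Smoothened, which is held back by the receptor Ptch1 until a ligand binds; freed or mutant Smoothened lets the GLI factors switch on targets that include Gli1, Ptch1 and Hhip. In muscle, satellite cells marked by Pax7 and Myf5 give rise to myoblasts through Myod1 and then Myog, and these fuse and build sarcomeres. Rhabdomyosarcoma is a tumor that expresses part of this muscle program.

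The gate and the mark were read first. Pecam1 was 11.11, 11.23 and 11.21 on the log2 intensity scale in marked muscle, 8.38, 8.11 and 7.82 in unmarked muscle, 6.99, 7.05, 7.43 and 6.94 in marked tumor and 7.38, 7.34, 6.91 and 7.84 in unmarked tumor cells. The muscle groups lay apart and the tumor groups overlapped; Pecam1 was used to sort the tumor cells, so its tumor values only describe the gate. The change with the mark was 3.08 in muscle (limma, adjusted p = 1.36e-09) and -0.26 in tumor (adjusted p = 0.294). Fabp4, whose promoter drives the Cre, was 12.44, 12.51 and 12.38 in marked against 10.80, 10.67 and 11.11 in unmarked muscle. In tumor it was 9.29, 9.44, 9.18 and 9.16 in marked against 9.38, 9.51, 9.29 and 10.62 in unmarked cells, where marked cells were not above unmarked ones. Gt(ROSA)26Sor, the transcript of the Rosa26 locus where reporters are often inserted, was named after its values were seen. It was 8.24, 8.31 and 8.21 against 6.78, 6.48 and 6.77 in muscle, and 7.87, 7.53, 7.71 and 7.88 against 6.35, 6.66, 6.71 and 6.32 in tumor. Its change was 1.58 and 1.24, and the difference of -0.34 (SE 0.17) did not pass the test (adjusted p = 0.126).

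Markers of the sorted cells differed in level between the 4 populations. The summed linear intensity of 37 blood endothelial genes was 46800 to 49500 in marked and 4150 to 4990 in unmarked muscle, but 3500 to 4250 in marked and 3370 to 4750 in unmarked tumor cells. That of 12 pan-leukocyte genes was 652 to 810 and 1280 to 1650 in muscle, and 1460 to 1950 and 4290 to 9810 in tumor, marked before unmarked. That of 21 myogenic progenitor genes was 2180 to 2320 and 6750 to 7730 in muscle, and 7350 to 8880 and 3370 to 5650 in tumor. Marked muscle cells thus held endothelial transcripts, and unmarked muscle cells a mixture with fibroblast and myogenic ones. Marked tumor cells held myogenic and fibroblast ones, and unmarked tumor cells fibroblast and leukocyte ones (fibroblast sums are given below). These were not the only ones. Sums of 15 pericyte and smooth muscle genes were 4420 to 8500 and 16900 to 19200 in muscle, and 11600 to 13200 and 12100 to 13400 in tumor. Sums of 10 tenocyte genes were 305 to 589 and 3260 to 5310 in muscle, and 2980 to 5060 and 9170 to 18900 in tumor. The tumor gates differed by degree. Sums of 38 sarcomere genes were 5740 to 9440 in unmarked tumor cells, against 1700 to 2840 in marked muscle. Sums of 19 macrophage and monocyte genes were 6090 to 7820 in marked tumor cells, against 2660 to 3120 in unmarked muscle. RMA intensities have no true zero, so no marker can be called absent. The file gives no detection call; array medians were 5.041 to 5.105 in muscle and 5.41 to 5.438 in tumor, and where a group lies below them the size of a change may be set by background.

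The arrays of a group correlated at r = 0.955 to 0.99 over all genes, a description since genes are no replicates. In the deposited tumor values, the mean over the 3 sorted populations of a repeat was the same for every repeat, within 7.67e-05 at all 41345 probe sets, whereas in muscle the corresponding range had a median of 0.248. Variation shared by the populations of a tumor is thus missing, and p-values from a fit without the repeat as a block tend to be too small. Counts with the repeat number as a block (replicate block) are therefore given beside those without it. Salivary gland transcripts, of the gland next to this neck muscle, differed within muscle: at 6 of 21 genes measured, repeats 1 and 2 of each population lay over 1 log2 unit above repeat 3. Their summed intensity ranged from 467 to 4060 in marked and from 510 to 20200 in unmarked muscle.

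Across all genes, the changes with the mark differed between the 2 tissues in direction and size. Of 16011 genes tested, 3065 were higher (19.1%) and 3287 lower (20.5%) in marked than in unmarked muscle cells, and 2141 were higher (13.4%) and 1924 lower (12.0%) in marked than in unmarked Pecam1-negative tumor cells, at an adjusted p of 0.05. The muscle changes had an SD of 0.88 across genes and the tumor changes of 0.52. Across the 16011 genes the 2 changes, which share no array, correlated at r = -0.035 (Pearson) and -0.0913 (Spearman), given as a description. The difference of differences was called in 6319 genes (39.5%), positive in 3353 (20.9%) and negative in 2966 (18.5%), where positive means more signal with the mark in tumor than in muscle. With the replicate block 4968 were called, 2676 positive and 2292 negative. Among genes with a called difference, 3208 were called in muscle alone, 1145 in tumor alone, 1252 in both with opposite directions, 301 in both with the same direction and 413 in neither.

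Of the 2053 genes called in both tissues, 801 (39.0%) kept their direction and 1252 (61.0%) reversed it. The 4 classes held 341 genes higher with the mark in both tissues (2.13% of all tested), 460 lower in both (2.87%), 476 higher in muscle and lower in tumor (2.97%), and 776 lower in muscle and higher in tumor (4.85%). With the replicate block they held 158, 310, 302 and 469. Of the genes in each class, 158, 302, 297 and 466 were in the same class with the block. Leaving out unmarked tumor repeat 1 took the class higher in both to 214, while the other arrays left out singly gave 230 to 355. All 1252 reversed genes had a called difference, which follows by construction from 2 called changes of opposite sign. The change was larger in muscle than in tumor for 77.1%, 67.6%, 80.9% and 78.1% of the 4 classes.

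**Figure D1:**
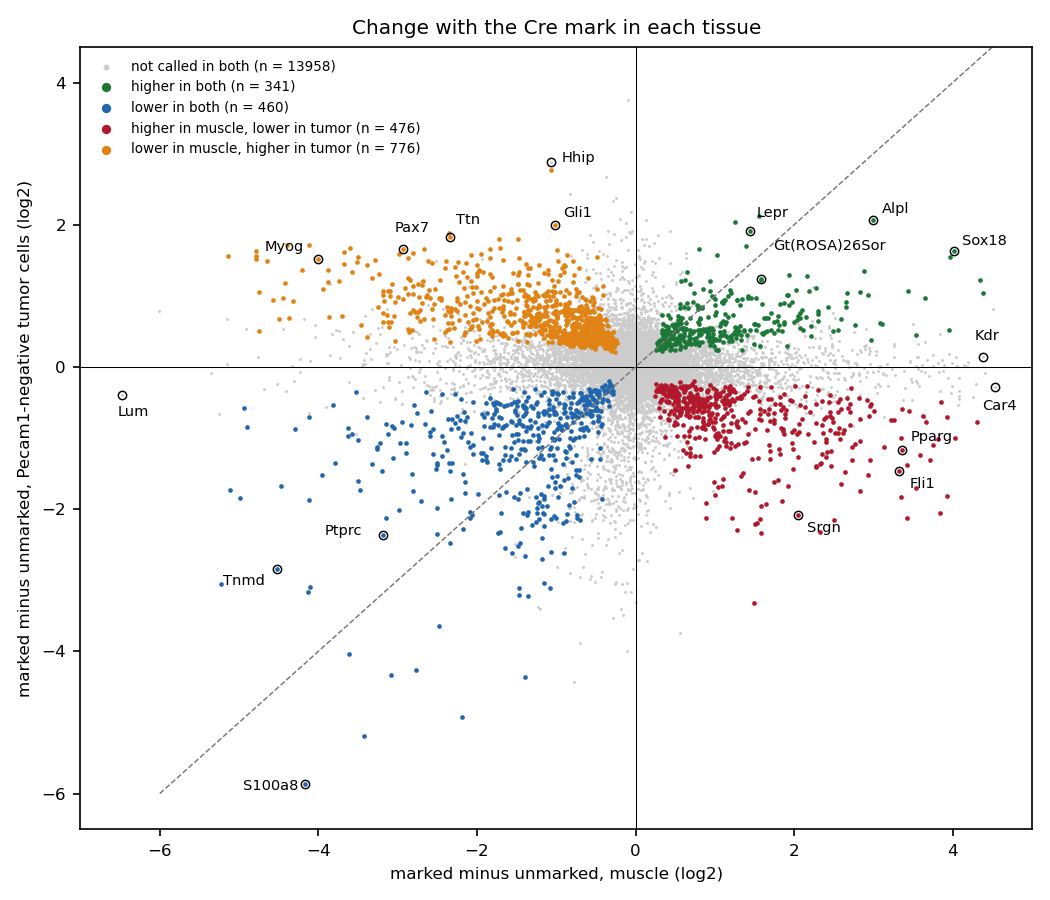
Each point is 1 of the 16011 genes tested, placed by its mean log2 change with the mark in muscle (horizontal) and in Pecam1-negative tumor cells (vertical); colours mark the 4 classes called in both tissues, and the dashed line marks equal change. The 776 genes lower in muscle and higher in tumor (upper left) form the largest class without a fold limit and include Myog, Pax7, Ttn and Gli1.

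This split depended on which tumor cells stood for the mark. When the marked tumor cells were taken as the mean of the Pecam1-negative and Pecam1-positive populations, 1383 genes were higher in both tissues and 1095 lower in both, while 153 and 102 reversed. The direction of reversal described below therefore holds for the Pecam1-negative cells. Restricting to changes of at least 2-fold in each contrast left 27, 152, 84 and 126 genes, so that the class lower in both was then the largest.

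**Figure D2:**
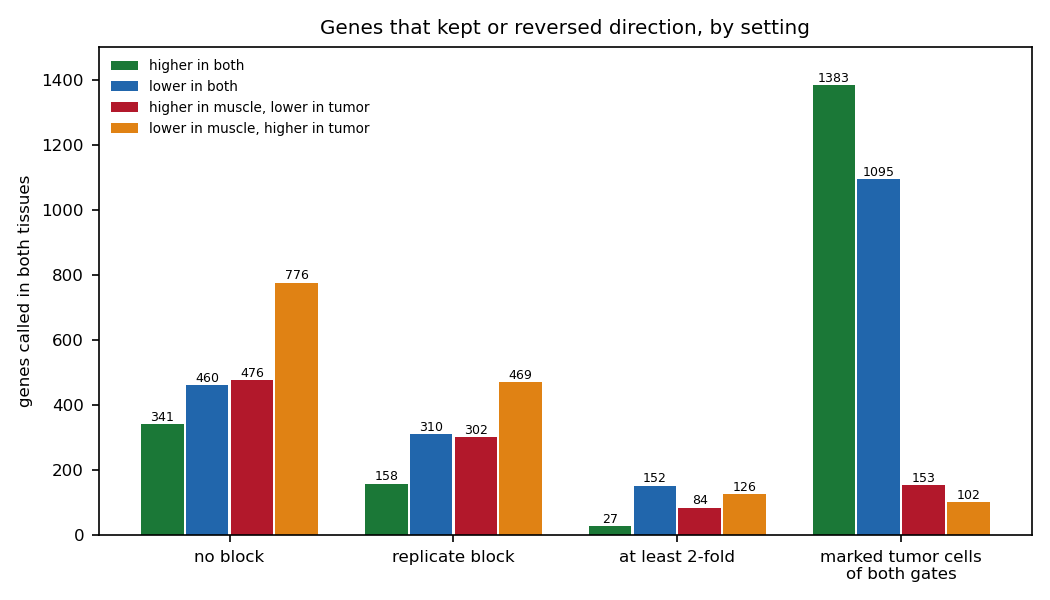
Bars give the number of genes in each class of kept or reversed direction under 4 settings, with the count above each bar. Reversed classes are larger than kept ones without a block (476 and 776 against 341 and 460). With the replicate block they hold 302 and 469 against 158 and 310. At 2-fold or more they hold 84 and 126 against 27 and 152, so that lower in both is the largest class. They are smaller when both Pecam1 gates of marked tumor cells are averaged (153 and 102 against 1383 and 1095).

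The genes higher with the mark in both tissues included endothelial transcription factors and a group of receptors and enzymes. Sox18, a transcription factor of endothelial development, was 9.36, 9.54 and 9.37 in marked against 5.35, 5.45 and 5.42 in unmarked muscle, and 7.26, 7.04, 7.27 and 7.65 in marked against 5.35, 5.68, 5.90 and 5.78 in unmarked tumor cells. All marked arrays lay above all unmarked arrays of their tissue, and Pecam1-positive tumor cells were higher still (9.48 to 10.29). Sox18 rose 16.2-fold in muscle and 3.08-fold in tumor, and the difference of -2.39 (SE 0.26) passed the test (adjusted p = 9.59e-07). Alpl, tissue-nonspecific alkaline phosphatase, was 10.28, 9.94 and 9.98 against 7.27, 6.74 and 7.19 in muscle, and 10.76, 9.83, 10.18 and 10.78 against 8.35, 8.91, 8.75 and 7.25 in tumor. Its rise was of 7.99-fold and 4.21-fold, and the difference did not pass (-0.93, 95% interval -1.94 to 0.09, adjusted p = 0.14). Here the marked tumor cells were above the Pecam1-positive ones (8.60 to 9.68).

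Lepr, the leptin receptor, was 6.42, 6.99 and 6.48 against 4.73, 5.22 and 5.6 in muscle, and 9.16, 8.75, 9.11 and 9.53 against 6.91, 7.35, 7.63 and 7.04 in tumor. It was higher in marked cells by 2.73-fold and 3.75-fold, with a difference of 0.46 (95% interval -0.25 to 1.17, adjusted p = 0.306). Enpp6, a choline phosphodiesterase, rose by 1.55 and 2.13 on the log2 scale, so that it and Lepr were the 2 of the 8 leading genes whose larger change was in tumor. Their differences did not pass the test. The other leading genes rose more in muscle: Pcdh17, a protocadherin (3.96 and 1.55), Lmo7, a LIM-domain protein of cell junctions (2.88 and 1.36), Enpp3, an ectonucleotidase (1.93 and 1.29), and Chp2, a calcineurin-like calcium sensor (2.16 and 1.28). The difference passed for Pcdh17 (adjusted p = 0.000613) and Lmo7 (adjusted p = 0.000312), not for Enpp3 (adjusted p = 0.126), and for Chp2 only without the block (adjusted p = 0.0408, with the block 0.107).

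The arterial and venous genes were among the lists with the most members in this class. Of 15 tested, 11 rose and 2 fell in muscle and 5 rose in tumor; 4 kept a rise in both (26.7%, against 2.13% of all genes), and the same number with the block. These 4 were Hey1, a Notch-responsive repressor (1.19 and 1.09), Sema3g, a semaphorin of arteries (1.97 and 0.91), Unc5b, a netrin receptor (2.31 and 0.79), and Ephb4, the venous Eph receptor (2.31 and 0.64). Hey1 was 10.26, 10.07 and 9.77 against 9.0, 8.86 and 8.67 in muscle and 10.55, 10.27, 10.14 and 10.50 against 9.13, 9.50, 9.72 and 8.76 in tumor. Its groups did not overlap in either tissue, and its difference of -0.10 (SE 0.28, adjusted p = 0.802) did not pass. Dll4 and Sox17, both arterial, rose by 3.76 and 3.0 in muscle and were at 0.17 and -0.07 in tumor.

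Of the general endothelial genes, few kept their direction. All 37 tested rose in muscle, and all 37 had a called negative difference, with a median change of 3.47 in muscle and -0.07 in tumor, beside 0.00 and 0.03 over all genes. In tumor 3 rose: Sox18, Cdh5, the VE-cadherin of endothelial junctions (3.44 in muscle, 1.07 in tumor), and Eng, the TGF-beta co-receptor endoglin (3.11 and 0.60). Cdh5 was 7.82, 7.82, 8.36 and 8.54 in marked and 6.86, 7.24, 6.72 and 7.41 in unmarked tumor cells, against 11.46 to 12.73 in Pecam1-positive ones. It was thus apart between the tumor groups, at a level below that of marked muscle cells (12.31 to 12.36). In tumor 5 fell, and the others did not pass the test. Gata2, a transcription factor of endothelial, mast and blood progenitor cells, also kept a rise (2.93 and 1.02).

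The genes lower with the mark in both tissues included genes of leukocytes and tendon. S100a8, a calcium-binding protein of neutrophils, was 3.69, 3.69 and 4.47 in marked against 7.72, 7.68 and 8.94 in unmarked muscle. In tumor it was 4.54, 5.19, 5.24 and 4.86 against 11.18, 10.43, 10.59 and 11.07. It was lower on every marked array, and the measured changes were -4.16 and -5.86, with a difference of -1.70 (SE 0.40, adjusted p = 0.00271). All its marked values lie below their array medians, so the sizes and their difference are uncertain. Its partner S100a9 fell by 3.08 and by 4.33, with a difference of -1.25 (adjusted p = 0.0231) that was lost without unmarked muscle repeat 2 or marked muscle repeat 3 (adjusted p = 0.0765 and 0.0714). Mcpt4, a mast cell chymase, fell by 3.43 and by 5.19 (difference -1.76, adjusted p = 0.00247). Its marked values, 2.93 to 3.38 in muscle and 2.29 to 3.10 in tumor, also lie below the array medians, so these sizes are uncertain too. Ptprc, the leukocyte antigen CD45, was named after its values were seen. It was 4.45, 4.51 and 5.61 against 7.52, 8.72 and 7.89 in muscle and 7.22, 7.69, 7.68 and 7.81 against 10.29, 10.07, 10.35 and 9.12 in tumor. Its fall of 3.19 and 2.36 did not differ past the threshold (0.83, SE 0.50, adjusted p = 0.202), and the marked tumor cells stood above the Pecam1-positive ones (4.28 to 5.38).

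Leukocyte lists fell together in tumor and in part in muscle. Of 12 pan-leukocyte genes, 12 fell in tumor and 8 in muscle, so that 8 kept a fall in both (66.7%, against 2.87% of all genes; 7 with the block). Of 19 macrophage and monocyte genes, 19 fell in tumor and 11 in muscle. The same 11 kept direction (57.9%, against 2.87% of all genes, 9 with the block). Among them were Csf1r, the receptor that macrophages need to survive, and the complement genes C1qb and C1qc. Of 11 neutrophil genes 11 fell in tumor and 4 in muscle, against 12.0% and 20.5% of all genes. A negative difference was called in 9 (6 with the block), against 18.5% of all genes. The median neutrophil change was -0.78 in muscle and -3.41 in tumor. Il1r2, a decoy receptor of interleukin 1, showed this gap: its muscle values were 3.83, 3.85 and 3.77 against 4.73, 4.21 and 4.84, and its tumor values 4.03, 4.49, 4.65 and 4.69 against 9.60, 9.16, 8.91 and 7.91. The change was -0.78 in muscle (adjusted p = 0.0822) and -4.43 in tumor (adjusted p = 6.11e-08).

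Lymphocyte and antigen presentation genes differed in how far they kept direction. Of 11 lymphocyte genes tested, 10 fell in tumor and 5 in muscle, against 12.0% and 20.5% of all genes. A fall was kept by 4 (36.4%, against 2.87% of all genes). They were Cd3e and Cd3d of the T cell receptor complex, Ms4a1, the B cell antigen CD20, and Il7r, the interleukin 7 receptor. Cd3d left this class with the block. Of 6 genes of MHC class II, which present antigen on dendritic cells, macrophages and B cells, 6 fell in tumor (12.0% of all genes did). In muscle 0 passed by limma with Benjamini-Hochberg adjustment, where 2 had an unadjusted p under 0.05. The medians were -1.76 in tumor and -0.40 in muscle. A negative difference was called in 3 (2 with the block), against 18.5% of all genes. Ciita, the master regulator of the class, was at -0.08 in muscle and -1.41 in tumor.

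Tendon genes also kept a fall. Of 10 tenocyte genes 9 fell in muscle and 7 in tumor. In both 7 fell (70.0%, against 2.87% of all genes, 5 with the block). Tnmd, tenomodulin, a membrane glycoprotein of tendon cells, was 4.23, 4.18 and 4.31 against 8.33, 8.73 and 9.24 in muscle and 6.48, 6.40, 6.20 and 5.57 against 8.92, 9.26, 8.69 and 9.14 in tumor. The measured changes were -4.52 and -2.84, and the difference of 1.68 (SE 0.35) passed the test (adjusted p = 0.00107), with a size that is uncertain because the marked muscle values lie below their array medians. The matrix genes Chad, chondroadherin (-4.13 and -3.17), Kera, keratocan (-5.22 and -3.05), and Thbs4, thrombospondin 4 (-5.12 and -1.74), also fell in both. The difference of Kera, 2.17, passed without the block (adjusted p = 0.0361) and not with it (adjusted p = 0.0885). Marked values of Kera lie below the array medians in both tissues, so this size is uncertain.

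Dpp4, a surface peptidase used to mark fibroblast progenitors and also found on lymphocytes, was 3.63, 3.67 and 3.64 against 8.12, 7.23 and 7.90 in muscle. In tumor it was 3.64, 3.54, 3.60 and 4.55 against 7.88, 7.33, 6.86 and 5.66. The groups lay apart in both tissues, and the changes of -4.11 and -3.10 did not differ past the threshold (adjusted p = 0.185). Ifi205, an interferon-inducible gene of a family of close relatives whose probes may not be separable, fell by 3.62 and by 4.04. Among fibroblast genes 6 of 26 kept a fall (23.1%, against 2.87% of all genes, 5 with the block). They were Mmp2, Mfap5, Pi16, Fbln1, Clec3b and Smoc2. Mmp2, a matrix metalloprotease, shows how unequal a kept direction can be: -4.94 in muscle and -0.58 in tumor, with a difference of 4.36 (SE 0.23, adjusted p = 4.82e-10). Of 10 Schwann cell genes 4 kept a fall, namely Mbp of myelin (-2.15 and -1.62), Cdh19, a cadherin (-2.98 and -2.01), and the transcription factors Sox10 (-0.56 and -0.62) and Foxd3 (-1.0 and -0.37), of which Foxd3 left the class with the block (adjusted p in tumor 0.0688).

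**Figure D3:**
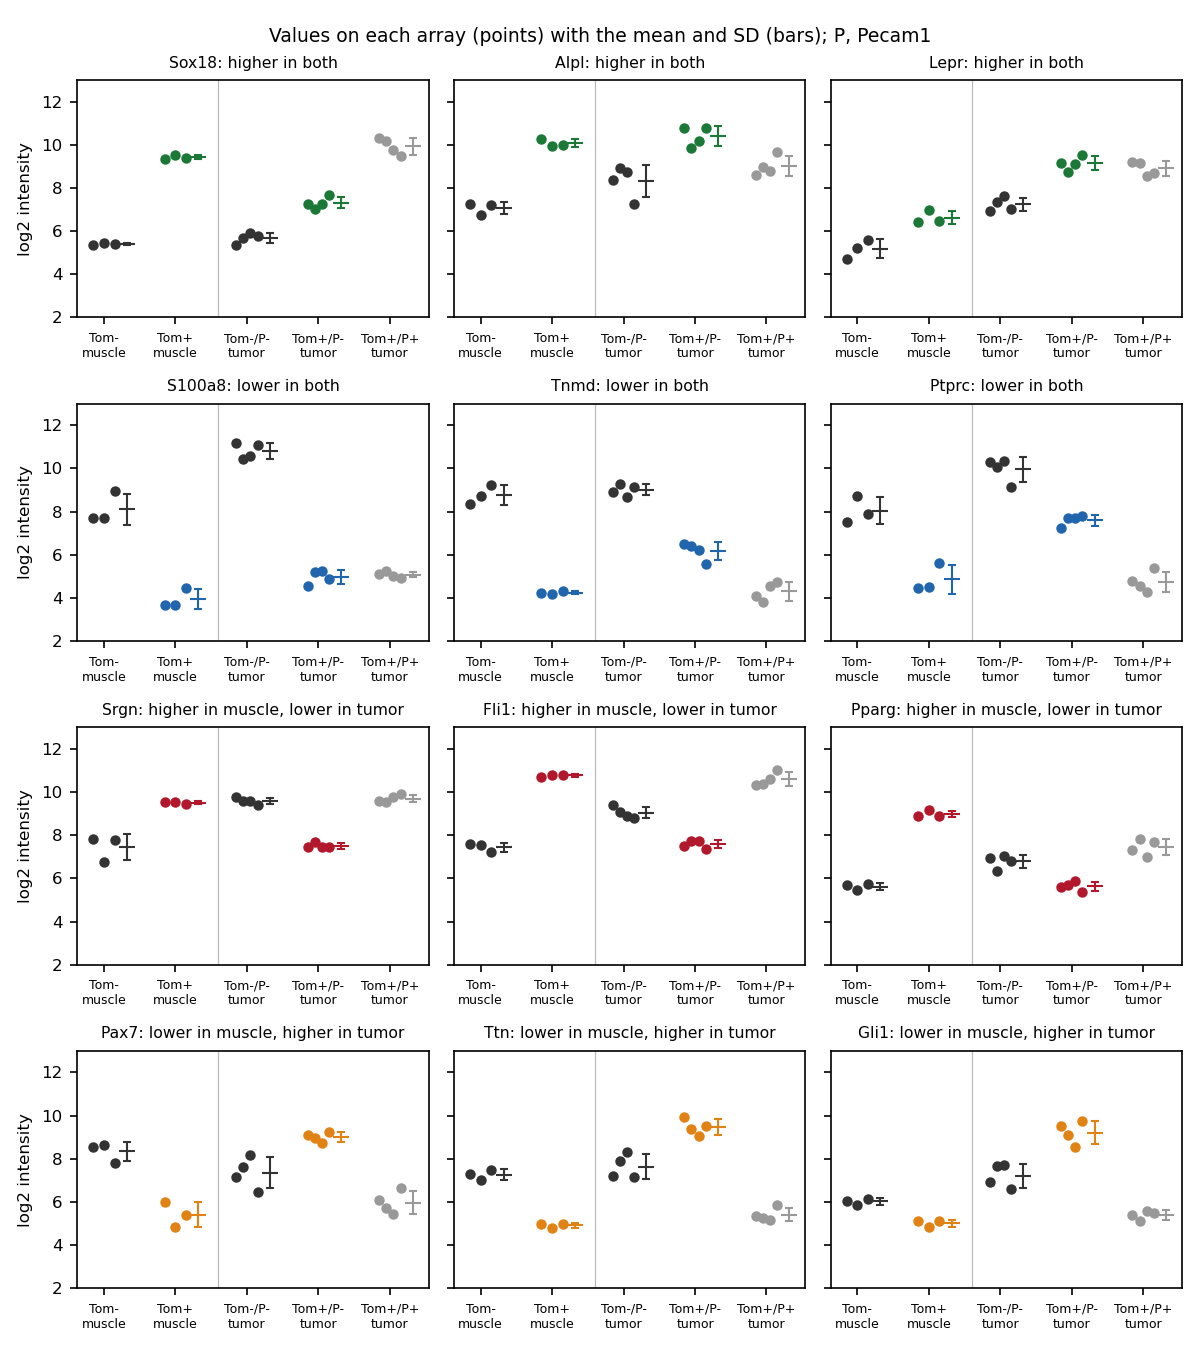
Log2 intensity on every array for 12 genes, 3 from each class by row, with points for arrays and bars for the group mean and SD; coloured points are the marked cells compared, black the unmarked cells and grey the Pecam1-positive marked tumor cells. In the top pair of rows the marked cells lie on the same side in both tissues, and in the lower pair they change sides, as for Srgn and Pax7.

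The genes higher with the mark in muscle and lower with it in tumor included Srgn, the ETS factors Fli1 and Erg, and Pparg. Srgn, serglycin, a proteoglycan of secretory granules in leukocytes and endothelium, was 9.56, 9.53 and 9.43 in marked against 7.81, 6.75 and 7.79 in unmarked muscle. In tumor it was 7.43, 7.68, 7.43 and 7.47 in marked against 9.77, 9.58, 9.59 and 9.42 in unmarked cells. The groups changed sides with no overlap, by 4.16-fold up and 4.26-fold down, a difference of -4.14 (SE 0.27, adjusted p = 3.36e-09). Pecam1-positive tumor cells, at 9.52 to 9.90, lay close to marked muscle. The other leaders were Mndal, an interferon-inducible gene of the same family as Ifi205 (2.50 and -2.15), Ctla2a and Ctla2b, cysteine protease inhibitors (3.42 and -2.12, and 3.93 and -1.81), Arhgap25 and Arhgap27, GTPase-activating proteins (1.85 and -1.89, and 3.53 and -1.70), Pik3cb, a catalytic subunit of phosphoinositide 3-kinase (2.83 and -1.74), and Trim30d (1.93 and -1.67). Pan-leukocyte markers moved with this class in tumor and endothelial markers with it in muscle, at the summed levels given above; their part in these changes was not tested.

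The ETS factors Fli1 and Erg reversed as well, while Ets1, another ETS factor of the blood endothelial list, did not (2.41 in muscle, -0.37 in tumor). Fli1, an ETS factor of endothelial and blood cells, was 10.70, 10.80 and 10.81 against 7.57, 7.56 and 7.20 in muscle and 7.48, 7.74, 7.72 and 7.37 against 9.40, 9.08, 8.88 and 8.81 in tumor. It rose by 3.33 in muscle and fell by 1.47 in tumor, with a difference of -4.79 (SE 0.24, adjusted p = 2.66e-10). Erg, its close relative, rose by 4.02 in muscle and fell by 1.0 in tumor, where 1 unmarked array (6.11) lay below the highest marked one (6.14). These 2 were the endothelial genes of this class that also passed with the block. Flt1, a VEGF receptor, S1pr1, a sphingosine phosphate receptor, and Ecscr, an endothelial surface protein, fell in tumor by 0.77, 0.71 and 0.44 without the block and did not pass with it (adjusted p = 0.116, 0.0641 and 0.0605). Without the tumor repeat taken at day 38, Flt1 (adjusted p = 0.223) and Ecscr (adjusted p = 0.0968) did not pass either.

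The RefSeq promoter windows of its 8 leading genes were searched for the letters CAGGAAG, an ETS-type site, on both strands; 3 of them, Mndal, Ctla2a and Ctla2b, held it in the 250 bases before a start site. They follow here (RefSeq, GRCm38.p6, minus strand of the chromosome, written 5′ to 3′ along the gene, chr1:173879959-173880208, chr13:60936567-60936816 and chr13:60897448-60897697), with the site on either strand in capitals.
Mndal: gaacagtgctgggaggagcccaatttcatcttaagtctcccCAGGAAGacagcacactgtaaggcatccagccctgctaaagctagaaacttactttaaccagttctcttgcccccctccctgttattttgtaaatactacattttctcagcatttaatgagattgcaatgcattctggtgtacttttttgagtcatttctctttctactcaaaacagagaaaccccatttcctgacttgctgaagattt
Ctla2a: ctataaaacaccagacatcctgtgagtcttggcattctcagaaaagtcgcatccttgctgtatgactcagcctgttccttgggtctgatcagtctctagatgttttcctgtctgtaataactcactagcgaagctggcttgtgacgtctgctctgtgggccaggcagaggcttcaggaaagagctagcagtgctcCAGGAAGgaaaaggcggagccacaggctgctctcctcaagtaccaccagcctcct
Ctla2b: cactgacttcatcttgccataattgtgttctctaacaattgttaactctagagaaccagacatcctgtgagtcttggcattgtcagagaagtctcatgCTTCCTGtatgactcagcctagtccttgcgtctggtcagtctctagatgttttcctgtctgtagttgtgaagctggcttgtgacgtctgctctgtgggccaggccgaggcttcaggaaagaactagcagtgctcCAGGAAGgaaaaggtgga
Ctla2a and Ctla2b are neighbouring relatives with similar letters here, and their probe sets may share targets, so their values are not independent.

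By class, the ETS-type letters stood in the window of 17.1% of the genes higher in muscle and lower in tumor (64 of 375 with a window), 7.54% of those lower in muscle and higher in tumor (45 of 597), 14.1% of those higher in both (37 of 263) and 16.1% of those lower in both (56 of 348), beside 12.2% of all tested genes with a window (1519 of 12416). The E-box CAGCTG, read by myogenic factors such as Myod1, stood in 15.2%, 18.8%, 18.6% and 18.1% of these classes and in 15.1% of all. A GLI site of 9 letters, also searched, stood in 0, 2, 1 and 0 genes of these classes and in 27 of all (0.217%), too few to compare. These are matches of letters, given with no test.

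Some genes of fat handling in capillaries reversed in this direction too. Of 12 genes of fatty acid handling in capillaries, 10 rose in muscle and 4 fell in tumor, and these 4 reversed, also with the block (33.3%, against 2.97% of all genes). Pparg, the nuclear receptor that directs fat storage and Fabp4 expression, was 8.90, 9.15 and 8.87 against 5.68, 5.45 and 5.72 in muscle and 5.59, 5.69, 5.86 and 5.36 against 6.95, 6.36, 7.03 and 6.81 in tumor. Marked cells were the higher ones in muscle and the lower ones in tumor on every array, and the changes of 3.36 and -1.16 differed by -4.52 (SE 0.27, adjusted p = 1.31e-09). Cd36, a fatty acid transporter (2.47 and -1.18), and the transcription factors Tcf15 (1.89 and -0.72) and Meox2 (1.56 and -0.73), which act together in heart and muscle capillaries, did likewise. Gpihbp1, which anchors lipoprotein lipase on capillaries, rose by 4.0 in muscle and was at 0.05 in tumor.

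Kit, the stem cell factor receptor of mast cells and progenitors, was the 1 mast cell gene to reverse in this direction. Its muscle values were 6.53, 7.51 and 7.78 against 5.85, 5.62 and 5.40, and its tumor values 4.94, 5.09, 5.27 and 5.46 against 7.12, 7.08, 7.07 and 7.23. The other mast cell genes fell in tumor, with Gata2 the exception, and 4 fell in muscle too. Summed over the 10 mast cell genes measured the intensity was 266 to 317 in marked and 1250 to 1740 in unmarked tumor cells, and 560 to 687 and 421 to 617 in muscle.

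The largest class without a fold limit, lower with the mark in muscle and higher with it in tumor, held the muscle program from stem cell factors to sarcomere proteins. Pax7, the satellite cell factor, was 5.99, 4.85 and 5.38 in marked against 8.56, 8.65 and 7.81 in unmarked muscle, and 9.12, 8.98, 8.73 and 9.23 in marked against 7.15, 7.64, 8.17 and 6.46 in unmarked tumor cells. It was lower by 7.62-fold in muscle and higher by 3.16-fold in tumor, a difference of 4.59 (SE 0.51, adjusted p = 1.49e-06). Pecam1-positive marked tumor cells, at 5.44 to 6.65, were near the marked muscle cells. Myf5, which starts myoblast commitment, went from -3.60 to 1.68, and Myod1, the myoblast determination factor, from -2.46 to 1.23. Their groups lay apart in both tissues.

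Of 21 myogenic progenitor genes tested, 17 fell in muscle and 14 rose in tumor, and 13 reversed (61.9%, against 4.85% of all genes; 11 with the block). They included Fgfr4, a growth factor receptor of myoblasts (-3.39 and 1.43), Megf10, a satellite cell receptor (-4.21 and 1.36), and Ncam1, an adhesion molecule of myogenic and neural cells, which was 5.03, 4.81 and 4.83 against 8.91, 9.07 and 9.04 in muscle and 10.29, 10.35, 10.08 and 10.61 against 8.48, 9.05, 9.49 and 7.42 in tumor. Not all members moved alike. Calcr, the calcitonin receptor of quiescent satellite cells, fell by 3.45 in muscle and was at 0.01 in tumor. Sdc3, syndecan 3, kept a rise in both (1.11 and 0.90).

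Genes of myoblast differentiation and fusion reversed with a similar share. Of 20 tested, 14 fell in muscle and 14 rose in tumor, and 13 reversed (65.0%, against 4.85% of all genes, 12 with the block). Myog, myogenin, was 5.42, 6.07 and 5.73 against 9.07, 10.22 and 9.93 in muscle and 9.45, 9.04, 8.78 and 9.10 against 7.53, 7.81, 8.12 and 6.84 in tumor. It was 16.0-fold lower and 2.86-fold higher, a difference of 5.52 (95% interval 4.58 to 6.46, adjusted p = 4.11e-08). Mymk, the fusion protein myomaker, was 5.49, 5.34 and 5.44 against 9.11, 10.37 and 9.98 in muscle and 9.72, 9.72, 9.74 and 9.91 against 7.97, 8.35, 8.90 and 7.03 in tumor, a difference of 6.11 (SE 0.55). Chrna1, the acetylcholine receptor subunit, had a difference of 6.35 (SE 0.38), and Musk, the kinase that clusters this receptor, one of 5.13 (SE 0.29). Mef2a, a factor also expressed outside muscle, went the other way without the block (0.62 and -0.30), and its fall in tumor did not pass with the block (adjusted p = 0.114).

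Structural muscle genes were part of the reversal. Of 37 sarcomere genes tested, 27 fell in muscle, 25 rose in tumor and 34 had a called positive difference. Of these 37, 16 reversed (43.2%, against 4.85% of all genes, 17 with the block). Ttn, titin, the molecular spring of the sarcomere, was 4.99, 4.80 and 5.0 against 7.31, 7.01 and 7.49 in muscle and 9.95, 9.37, 9.04 and 9.51 against 7.20, 7.91, 8.32 and 7.14 in tumor. The changes were -2.34 and 1.83. Actc1, the cardiac and fetal muscle actin, changed by -4.65 and 1.49, Mybpc1, a myosin-binding protein, by -3.58 and 1.34, and Myh8, the perinatal myosin heavy chain, by -1.83 and 1.66. Of 16 genes of calcium handling 12 fell in muscle, 10 rose in tumor and 16 had a called positive difference. Of these 16, 7 reversed (43.8%, against 4.85% of all genes). Ryr1, the calcium release channel (-1.35 and 1.40), and Atp2a1, the calcium pump of fast fibres (-2.74 and 1.17), were among these 7.

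The remaining leaders of this class were Bex1, a small adaptor protein (-2.35 and 1.89), Klhl31, a muscle kelch protein (-1.73 and 1.79), and Trpc6, a cation channel (-1.70 and 1.68). Tcf21, a transcription factor of head muscle precursors and fibroblasts, reversed with a large rise in tumor: its muscle values were 3.83, 4.13 and 4.36 against 5.30, 4.65 and 5.55, and its tumor values 9.03, 9.23, 8.90 and 9.81 against 6.35, 7.01, 6.88 and 5.68. The fall in muscle was lost without marked repeat 1 (adjusted p = 0.0628) or unmarked repeat 3 (adjusted p = 0.0775). Prox1, known from lymphatic endothelium and also from satellite cells, was 5.47, 4.38 and 5.22 against 8.44, 8.45 and 8.68 in muscle and 9.0, 8.95, 8.43 and 9.08 against 7.11, 7.36, 8.13 and 6.67 in tumor. Of 8 lymphatic endothelial genes tested, 6 fell and 2 rose in muscle, against 20.5% and 19.1% of all genes. In tumor 2 rose and 1 fell, against 13.4% and 12.0%. A positive difference was called in 6, against 20.9% of all genes. Of the 8, 2 reversed (25.0%, against 4.85% of all genes). They were Prox1 and Pdpn, podoplanin (-3.39 and 0.42), the latter not with the block (adjusted p in tumor 0.0775). Lyve1, the lymphatic hyaluronan receptor, kept a fall (-1.65 and -0.84), and Flt4, the lymphatic VEGF receptor, rose by 2.15 in muscle and was at -0.48 in tumor. S100b, a calcium-binding protein of glia and some muscle cells, reversed (-2.57 and 1.47), unlike the other Schwann cell genes called in both.

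**Figure D4:**
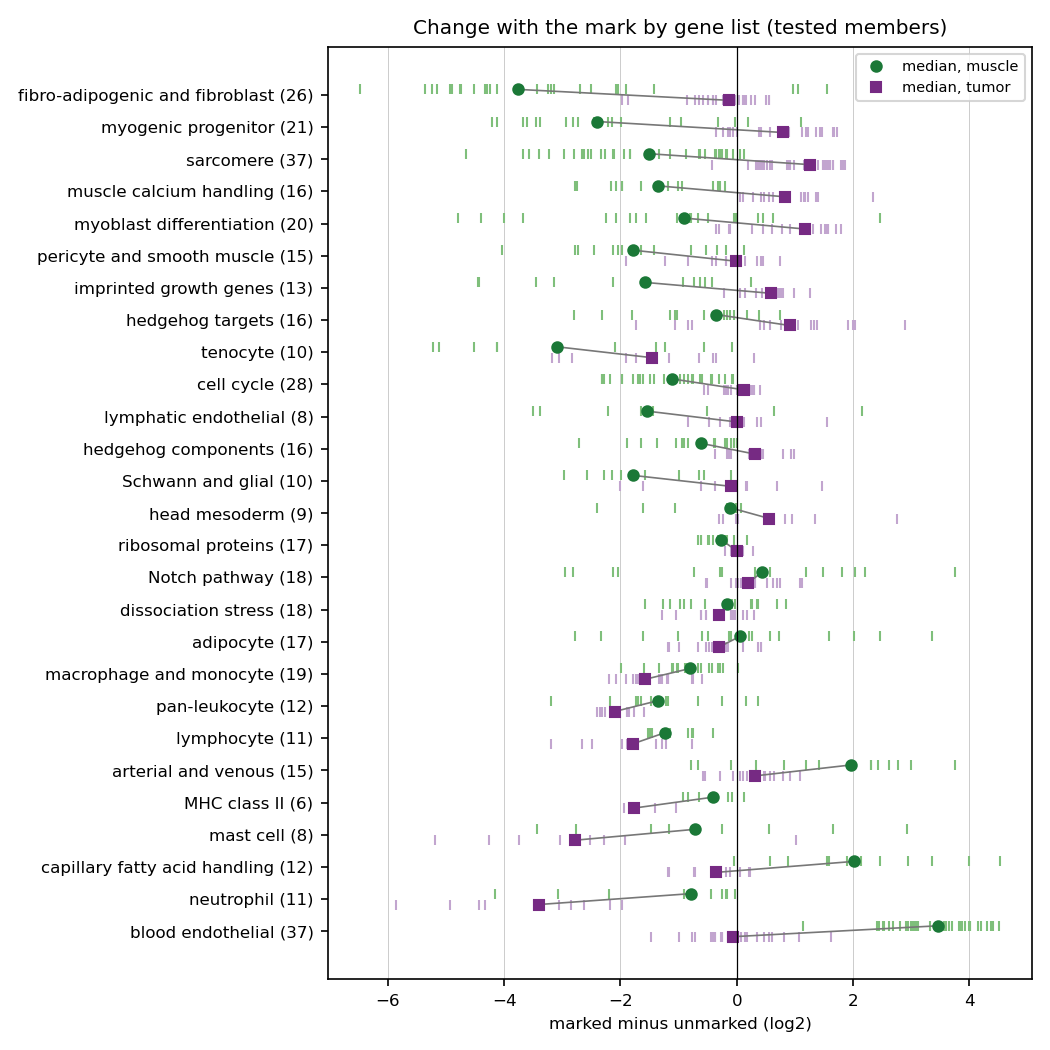
For each gene list (tested members in brackets), ticks give each member's log2 change with the mark in muscle (green) and tumor (purple), and the joined circle and square give the medians. Blood endothelial genes have medians of 3.47 in muscle and -0.07 in tumor, the sarcomere list -1.51 and 1.26, and the tenocyte list -3.10 and -1.46.

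Hedgehog genes had their changes mostly in tumor. Of 16 targets tested, 10 rose and 3 fell in tumor, against 13.4% and 12.0% of all genes. In muscle 1 rose and 6 fell, against 19.1% and 20.5%. A positive difference was called in 11, against 20.9% of all genes. Gli1, a GLI factor and standard readout of the pathway, was 5.10, 4.83 and 5.10 against 6.05, 5.87 and 6.15 in muscle and 9.52, 9.08, 8.53 and 9.73 against 6.91, 7.65, 7.72 and 6.59 in tumor. It reversed, with changes of -1.02 and 2.0 and a difference of 3.01 (SE 0.38, adjusted p = 7.03e-06). Ptch1, the receptor and feedback target, did not: at 7.95, 7.99 and 7.91 against 7.85, 8.13 and 8.01 the muscle groups overlapped, while in tumor it was 11.41, 11.04, 11.09 and 11.64 against 9.05, 9.78, 10.12 and 8.57. Hhip, which binds hedgehog ligands, was 3.82, 3.43 and 3.38 against 5.05, 4.23 and 4.56 in muscle, a change of -1.07 that did not pass (SE 0.67, adjusted p = 0.233), and 10.74, 10.61, 10.29 and 11.32 against 7.62, 8.71, 9.24 and 5.83 in tumor, a rise of 2.89. The Hhip muscle groups did not overlap, and the SE draws on the spread of all populations, with unmarked tumor cells at 5.83 to 9.24. Its muscle values also lie near or below the array medians (5.041 to 5.105), so a change there stays uncertain. The differences of Ptch1 and Hhip, 1.96 and 3.96, passed the test (adjusted p = 0.001 and 0.00187).

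Other targets split between the classes. Bmp4, a ligand of the BMP family, reversed (-1.15 and 1.33), as did Foxl1 (-0.57 and 0.77), whose fall in muscle did not pass with the block (adjusted p = 0.0585). Foxf2, a forkhead factor, rose in tumor (2.03) and was at -0.12 in muscle. Tbx3, a T-box factor, kept a rise in both (0.74 and 1.05, adjusted p of the difference 0.313). Osr1, an odd-skipped factor of connective tissue, and Sfrp1, a secreted Wnt antagonist, kept a fall (-2.80 and -1.74, and -1.80 and -0.84), Sfrp1 only without the block (adjusted p in tumor 0.0507).

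Pathway components that passed the test fell in muscle and rose in tumor. Of 16 tested, 9 fell in muscle and 8 rose in tumor, against 20.5% and 13.4% of all genes. A positive difference was called in 12, against 20.9% of all genes. Of the 16, 5 reversed (31.2%, against 4.85% of all genes), and 3 with the block. Smo was 6.40, 6.66 and 6.66 against 7.59, 7.89 and 7.35 in muscle and 9.35, 9.14, 9.12 and 9.21 against 7.85, 8.36, 8.40 and 8.25 in tumor. The groups changed sides without overlap, by -1.04 and 0.99, and whether the probe set separates the SmoM2 allele from the normal gene was not tested. Cdon, a co-receptor that is also a myoblast surface protein (-2.71 and 0.80), and Gli2, the main GLI activator (-1.38 and 0.93), reversed with and without the block. Evc and Kif3a, both of the primary cilium, did so without it, and their rises in tumor of 0.42 and 0.41 did not pass with it (adjusted p = 0.124 and 0.0787). Gas1, a co-receptor, fell in muscle (-1.88) and was at -0.14 in tumor.

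Large differences also came from genes that moved in muscle alone. Lum, lumican, a matrix proteoglycan of fibroblasts, was 4.20, 3.89 and 4.03 in marked against 10.56, 10.35 and 10.63 in unmarked muscle, and 10.37, 10.38, 10.88 and 9.58 against 10.41, 10.53, 10.72 and 11.14 in tumor. Only the muscle groups lay apart, and the difference of 6.08 (SE 0.36, adjusted p = 1.31e-09) came from a measured change of -6.48 in muscle, where the marked arrays lie below their medians so that its size is uncertain, and no call in tumor. The other positive leaders outside the classes were Dcn, decorin (difference 5.27), Ogn, osteoglycin (5.20), Rian, an imprinted noncoding RNA (4.98), Col3a1, a fibrillar collagen (4.90), and Olfml2b, a secreted matrix protein (4.63). Of 26 fibroblast genes, 23 fell in muscle (20.5% of all genes did). In tumor 6 fell and 1 rose, against 12.0% and 13.4% of all genes. Beside 20.9% of all genes, 22 of these fibroblast genes had a called positive difference. Their summed intensity was 5150 to 5500 and 27200 to 30200 in marked and unmarked muscle, and 28900 to 41100 and 37400 to 41200 in tumor. Col6a1, the gene of this list that rose in tumor (0.50), did not pass with the block (adjusted p = 0.0796).

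On the negative side 6 genes led outside the classes. Car4, a carbonic anhydrase on the surface of capillary endothelium, was 10.03, 10.39 and 10.35 against 5.96, 5.91 and 5.31 in muscle and 5.68, 5.24, 5.27 and 4.02 against 5.48, 5.13, 5.58 and 5.14 in tumor. It rose 23.1-fold in muscle, was at -0.28 in tumor (adjusted p = 0.641) and differed by -4.81 (SE 0.56, adjusted p = 2.5e-06). Timp4, a metalloprotease inhibitor, Slc28a2, a nucleoside transporter, Gbp4, an interferon-induced GTPase, Clic5, a chloride channel protein, and Car8, a protein of the carbonic anhydrase family, had differences of -4.67, -4.61, -4.54, -4.53 and -4.50. All 6 rose by over 4 in muscle with the groups apart, and their tumor groups overlapped. In Pecam1-positive marked tumor cells their means were 7.86 to 9.84.

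Cell cycle and imprinted genes were 2 further groups with a positive difference. Of 28 cell cycle genes tested, 22 fell in muscle and 2 in tumor, against 20.5% and 12.0% of all genes. A positive difference was called in 21, the same number with the block, against 20.9% of all genes. None was in a class of kept or reversed direction. Ube2c, a ubiquitin-conjugating enzyme of mitosis, was 6.01, 7.02 and 7.19 against 8.79, 8.80 and 9.48 in muscle and 8.42, 8.62, 8.72 and 8.21 against 8.41, 8.31, 8.29 and 8.42 in tumor. Of 13 imprinted genes of growth, 12 fell in muscle and 8 rose in tumor. Of these 13, 7 reversed (53.8%, against 4.85% of all genes), but 2 with the block. Zim1, a zinc finger gene, kept its call with the block (-4.44 and 0.97), and Meg3, a noncoding RNA, and Peg3, a zinc finger gene, did not.

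Notch and fat cell genes had members in several classes. Of 18 Notch genes 9 rose and 5 fell in muscle, against 19.1% and 20.5% of all genes. In tumor 7 rose and 2 fell, against 13.4% and 12.0%, so the count of falls in tumor does not set the list apart. The median difference was 0.00. Notch1, the endothelial receptor, was higher in both (0.57 and 0.69), though not in this class with the block. Heyl, a Notch-induced repressor of satellite cells and pericytes, reversed (-2.81 and 1.13). Rbpj, the DNA-binding partner of Notch, kept a fall (-0.74 and -0.51). Of 17 adipocyte genes, 4 were higher in muscle and lower in tumor (23.5%, against 2.97% of all genes, 3 with the block). They were Lipe and Pnpla2, both lipases, with Pparg and Cd36. Slc2a4, Fasn and Acaca, 3 of the 17, were lower in muscle and higher in tumor (17.6%, against 4.85% of all genes). With the block their rises in tumor did not pass (adjusted p = 0.127, 0.0674 and 0.0976).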

How the data were processed

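Expression was measured on 18 mouse arrays, 1 per sorted sample. The deposited table holds log2 intensities of 41345 probe sets (1.19 to 13.4, 0 missing values), made by the authors with RMA and Partek per the submitters' processing notes, in which versions are not given. The tumor values carry no difference between repeats in the mean over populations, a step no source used here records. Probe sets with 1 symbol (23521) were kept, those with several (1814) or none (16010) left out, and a gene took its brightest probe set (22180 genes, 1082 with a choice). A gene was tested if 3 or more arrays exceeded the 40th percentile of all their probe sets (16011 tested, 6169 too dim). Array intensities give no counts, so the number of arrays limits the precision.

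limma 3.58.1 (R 4.3.3) fitted 1 mean per population over 18 arrays (13 residual degrees of freedom), two-sided, with Benjamini-Hochberg adjustment and a threshold of 0.05. Kept genes passed in both contrasts with equal signs, reversed genes with opposite signs. The replicate block was the repeat number within each tissue (8 residual degrees of freedom). Muscle numbers pair the samples, since same-numbered arrays deviated together (r = 0.27 to 0.31, others -0.19 to -0.09), and in tumor the check is void because of the removed mean. The fit was tested on simulated data.

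The genes named were Pax7, Myod1, Myog, the hedgehog genes Smo, Gli1, Ptch1 and Hhip, the sorting marker Pecam1 and Fabp4, then up to 8 per class (passing with and without the block, groups not overlapping, ranked by the smaller of both changes), the 6 largest differences of each sign outside the classes, and from each list the 4 members at most whose difference had the lowest adjusted p and members of a class of 5 or fewer. Other list members named, and genes chosen after their values were seen, are additions. Symbols of predicted, small RNA or accession-like genes were left out. The comparison, members and gene lists were chosen with earlier results of these data known. Motifs were searched in RefSeq windows (GRCm38.p6) of the 250 bases before a start. Alternatives are given in the closing section. Figures used matplotlib 3.10.9 and pandas 2.3.3 under Python 3.11.15.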

Additional observations from a re-analysis of the deposited data

Results flagged for a closer look

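The mark went with different changes in muscle and in tumor, by limma's test of the difference, in 3353 genes with a positive and 2966 with a negative difference. Of the 53 genes chosen by the main parts of the naming rule, 46 had a called difference (tumor change minus muscle change, log2), and many were chosen for it. Among the genes named in every case it was -3.34 for Pecam1, -2.02 for Fabp4, 2.03 for Smo, 3.01 for Gli1, 1.96 for Ptch1, 3.96 for Hhip, 4.59 for Pax7, 3.69 for Myod1 and 5.52 for Myog. Among genes higher in both tissues it was -2.39 for Sox18, -2.42 for Pcdh17, -1.52 for Lmo7 and -0.88 for Chp2, all with the larger rise in muscle. Among genes lower in both it was -1.70 for S100a8, -1.76 for Mcpt4 and -1.25 for S100a9, with the larger measured fall in tumor. It was 2.17 for Kera and 1.68 for Tnmd, with the larger measured fall in muscle. Marked values of S100a8, Mcpt4 and Kera in both tissues, and of Tnmd in muscle, lie below the array medians, so these sizes are uncertain.

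Among genes higher in muscle and lower in tumor the difference was -4.64 for Mndal, -5.54 for Ctla2a, -4.14 for Srgn, -3.74 for Arhgap25, -5.75 for Ctla2b, -4.57 for Pik3cb, -5.24 for Arhgap27 and -3.60 for Trim30d. In the opposite class it was 4.23 for Bex1, 4.17 for Ttn, 3.52 for Klhl31, 5.84 for Ncam1, 6.11 for Mymk, 3.38 for Trpc6, 5.28 for Myf5 and 3.50 for Myh8. Outside the classes it was -4.81 for Car4, -4.67 for Timp4, -4.61 for Slc28a2, -4.54 for Gbp4, -4.53 for Clic5 and -4.50 for Car8, and 6.08 for Lum, 5.27 for Dcn, 5.20 for Ogn, 4.98 for Rian, 4.90 for Col3a1 and 4.63 for Olfml2b.

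A single array lay far from the other 3 of its group in 4 of 106 tested groups of values, and chance alone gives about 1 in 20. These were Fabp4 in unmarked tumor repeat 4 (10.62, above the others), Dpp4 in marked tumor repeat 4 (4.55, above), Srgn in marked tumor repeat 2 (7.68, above) and Mymk in marked tumor repeat 4 (9.91, above). Repeat 4 is the tumor taken at day 38.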

How the results depend on the processing

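With quantile normalization, median centring, a dim-gene filter at the 60th percentile or none, the mean of a gene's probe sets, the 14 arrays compared alone, a trended and robust variance, array weights, or without tumor repeat 4, each count of called differences and of the 4 classes (higher in both, lower in both, higher in muscle and lower in tumor, lower in muscle and higher in tumor) stayed within 1.5 times its value. Quantile normalization and centring turned the sign of 0 of 854 called changes of list members. The replicate block moved higher in both to 158 and the reversed classes to 302 and 469. It kept 433 of 466 called changes of named genes. Each repeat holds every population of its tissue, so the block leaves the changes as they are and could turn no sign. An adjusted p of 0.01 gave 134, 237, 263 and 405 genes in the classes. At least 2-fold gave 3189 differences (1661 positive, 1528 negative) and 27, 152, 84 and 126 in the classes. Without muscle repeats 1 and 2, which leaves 1 array per muscle population, assumed to vary like the other groups, there were 3992 differences (2133 positive, 1859 negative), with 199 higher in both, 292 lower in both and 474 lower in muscle and higher in tumor. Leaving out each array in turn gave 214 to 355 genes higher in both. A stricter call lowers the counts by construction. Why counts fell in fits with fewer arrays was not tested, and they did not always fall. Without tumor repeat 4, 6687 differences were called, against 6319 with it.

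With both Pecam1 gates averaged as marked tumor cells, the classes held 1383, 1095, 153 and 102 genes, and the tumor change turned sign in 38 named genes; the cause was not tested. Endothelial and other genes became higher: Fli1 0.039, Erg 1.29, Ecscr 1.39, S1pr1 1.39, Flt1 1.96, Cd36 0.82, Tcf15 0.93, Lipe 0.52, Mef2a 0.076, Mfng 1.05 and Arhgap27 0.29. Muscle, hedgehog and other genes became lower: Hhip -0.11, Myod1 -0.041, Bex1 -0.005, Ttn -0.20, Ncam1 -0.46, Mymk -0.27, Myh8 -0.45, Pdpn -1.21, Cdon -0.83, Gli2 -0.20, Kif3a -0.004, Evc -0.19, Megf10 -0.60, Musk -0.27, Chrna1 -0.45, Myocd -0.14, Tpm1 -0.08, Actc1 -0.45, Hrc -0.11, Col6a1 -1.91, S100b -0.69, Notch3 -0.64, Fasn -0.46, Zim1 -0.76, Meg3 -1.02, Peg3 -1.05 and Heyl -0.75.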

Other observations

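Transcription factors of head mesoderm, the source of neck and face muscles, had a called positive difference in 7 of 9 tested members, against 20.9% of all genes. Tbx1, a T-box factor of pharyngeal mesoderm, was at -0.17 in muscle (adjusted p = 0.658 in limma) and rose by 1.36 in tumor, while Msc, musculin, and Six2 fell by 2.40 and by 1.62 in muscle and did not pass in tumor (-0.22 and -0.30). The summed intensity of the 9 genes was 309 to 320 and 617 to 640 in marked and unmarked muscle, and 1380 to 1920 and 632 to 869 in tumor.

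Pericyte and smooth muscle genes mostly fell with the mark in muscle (10 of 15, against 20.5% of all genes). In tumor 1 rose and 3 fell, against 13.4% and 12.0% of all genes, so the tumor counts do not set the list apart. A positive difference was called in 9, against 20.9% of all genes. Acta2, smooth muscle actin, and Cnn1, calponin, fell by 2.73 and by 4.04 in muscle and were at 0.46 and 0.42 in tumor. Ndufa4l2, a hypoxia-induced mitochondrial protein, and Anpep, aminopeptidase N, kept a fall (-1.64 and -1.24, and -1.42 and -0.84). Notch3, a pericyte receptor, was lower in muscle (-2.05) and higher in tumor (0.75), the latter not passing with the replicate block (adjusted p = 0.061).

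Of 17 ribosomal protein genes, 11 were lower in marked muscle cells (20.5% of all genes were), with a median change of -0.27. A positive difference was called in 5 of the 17, against 20.9% of all genes. With the block it was called in 3 of the 17, against 2676 of all 16011 genes, so these counts do not set the list apart. Of 18 genes induced by tissue dissociation, Btg2 and Dusp1, both immediate early genes, had negative differences of -0.86 and -0.71. A negative difference was called in 2 of the 18, against 18.5% of all genes. With the block 2 were called positive and 3 negative. The summed intensity of these 18 genes ranged from 10800 to 29000 in marked and from 13000 to 24700 in unmarked muscle, and from 22300 to 29900 and 27700 to 34400 in tumor. Of 13 salivary gland genes tested, Muc19, a salivary mucin, had a called difference (-0.44, adjusted p = 0.0113), which did not pass with the block (adjusted p = 0.0619).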
